A study of Mus musculus with 24 samples.

Results

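Erythroferrone and 9 of its paralogs in the C1q/TNF-related family were followed in liver and bone marrow of mice that lack erythroferrone, before and after bleeding. The members were Erfe itself, C1qtnf1, C1qtnf2, C1qtnf3, C1qtnf4, C1qtnf5, C1qtnf6, C1qtnf7, C1qtnf9 and Adipoq, taken by gene name from the array annotation. They are 10 of the 37008 names on the array and are measured by 15 probes of 60 bases.

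Total RNA of male Erfe-/- mice was hybridised to 24 single-colour Agilent arrays, 1 array per sample. The 6 groups were liver and marrow at 0 h, labelled control, and at 24 h and 48 h after phlebotomy by retro-orbital puncture. Each group had 4 samples. All groups carry the same Erfe-/- genotype and no wild-type mouse was analysed here, so nothing below compares the knockout with a normal animal. The mice's age, the strain, the blood volume taken and the extent of the Erfe deletion are not given in the sources used here. The labels do not say whether the liver and the marrow of one number came from 1 mouse.

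The family consists of secreted proteins whose C-terminal globular C1q domain assembles into trimers, in most members next to a collagen-like stretch. Adiponectin, the product of Adipoq, is the best known of them: fat cells release it, and it acts on liver and muscle through the receptors Adipor1 and Adipor2 and binds the T-cadherin Cdh13. Erythroferrone is made by erythroblasts under erythropoietin through STAT5, and it lowers hepcidin (Hamp) in the liver by binding BMP ligands, which frees iron for new red cells. The comparisons ask which paralogs are detected in each tissue without Erfe and whether any of them rises after bleeding.

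The probe sequences show what each measurement reads. Those of Erfe, C1qtnf4 and Adipoq are printed from the scanner files, 5′ to 3′, because the results below turn on them. That of C1qtnf5 is printed for comparison with C1qtnf4. Capitals mark the longest run that the C1qtnf4 and C1qtnf5 probes share.
Erfe: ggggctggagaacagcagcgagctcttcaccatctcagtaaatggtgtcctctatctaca
C1qtnf4: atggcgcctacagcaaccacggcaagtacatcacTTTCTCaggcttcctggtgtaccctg
C1qtnf5: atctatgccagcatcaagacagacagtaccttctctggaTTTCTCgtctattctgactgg
Adipoq: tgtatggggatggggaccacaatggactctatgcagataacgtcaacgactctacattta

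The file headers place these probes on mouse build mm9, on the plus strand at chr1:93267977-93268036 (Erfe), chr2:90730416-90730475 (C1qtnf4), chr9:43916812-43916871 (C1qtnf5) and chr16:23157576-23157635 (Adipoq). The second Erfe probe lies further along the gene at chr1:93270468-93270527. Which exons or untranslated regions hold the probes was not analysed here. Over the 99 pairs of probes of different members, the longest identical run was 9 of 60 bases, with a median of 5. No probe therefore repeats a long stretch of another member's probe. The C1qtnf4 and C1qtnf5 probes had the most identical bases of the 99 pairs, 31 of 60. Whether a probe also reads RNA of another member was not tested.

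A probe counts as detected on an array where the scanner software marks its spot well above background, and a member as detected in a tissue where 1 of its probes is detected on all 4 arrays of at least 1 group. By that rule 7 of the 10 members were detected in liver, C1qtnf1 to C1qtnf7. In marrow 8 were detected, the same 7 and Adipoq. C1qtnf1, C1qtnf4, C1qtnf5, C1qtnf6 and C1qtnf7 were above background on all 24 arrays. Erfe and C1qtnf9 were detected in neither tissue. In each tissue 9 of the 15 member probes passed this filter, which is 60% of them, where 50.9% of all probes passed in liver and 56.9% in marrow.

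**Figure D1:**
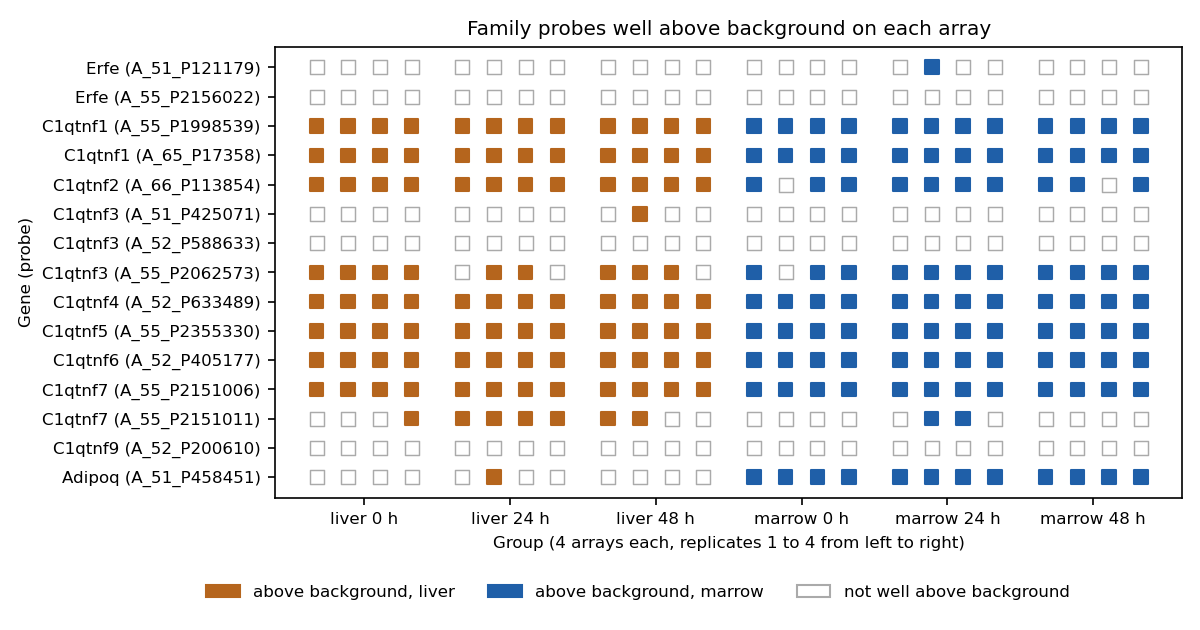
Detection of the 15 family probes (rows) on the 24 arrays (columns, grouped by tissue and hours after bleeding). A filled square is a spot well above background and an open square one that is not. The 2 Erfe probes are open on every array but 1, a marrow array at 24 h, and Adipoq is filled on all 12 marrow arrays and on 1 liver array.

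Levels are given as log2 of the processed signal relative to the array's own 75th percentile. They are set side by side only for the same probe. The signal at the 75th percentile itself ranged from 361.2 to 473.1 intensity units over the liver arrays and from 715.0 to 954.7 over the marrow arrays. The hepatocyte markers, 10 genes such as Alb and Apoa1, were all detected in liver, with a summed signal of 6399 to 8120 times the 75th percentile. In marrow the erythroblast markers, among them Alas2 and Slc4a1, were detected in all groups for 10 of 10 genes. One marrow array stood apart: at 24 h, replicate 2 had a summed hepatocyte signal of 1359, where 9 other marrow arrays had 0.272 to 3.65. The other 2 had no sum, since an outlier spot was left out there. The array is kept in the values below, and the members' changes at 24 h in marrow are also given without it.

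Erfe, the gene knocked out, was checked first. Its probe at chr1:93267977 was above background on 0 of 24 arrays. The probe at chr1:93270468 was above background on 1 of 24, replicate 2 of marrow at 24 h, the array with the hepatocyte signal, where it read -2.61 (147.13 intensity units). On the other 23 arrays that spot read between 2.64 and 17.78 units. For scale, the dimmest signal counted as above background lay between -5.83 and -4.83 on the marrow arrays and between -5.40 and -3.96 on the liver arrays. The 12 marrow values of this probe had a median of -7.28 and the 12 liver values one of -6.66. Since Erfe was not well above background in any group, before or after bleeding, no fold change is given for it, and whether either probe lies in the deleted part of the gene was not tested.

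The genes around Erfe on chromosome 1 were called in neither tissue after bleeding, 0 of 10 tested in liver and 0 of 11 in marrow. These counts are near the share of all genes called, 0.0% in liver and 1.01% at 24 h and 1.23% at 48 h in marrow. Those with the smallest p at 24 h were Ramp1 (0.36, limma adjusted p = 0.402) and Lrrfip1 (-0.22, adjusted p = 0.408) in liver, and Scly (0.21, adjusted p = 0.240) and Klhl30 (-0.85, adjusted p = 0.320) in marrow. At 48 h they were Ramp1 (0.36, adjusted p = 0.685) and Espnl (-0.21, adjusted p = 0.872) in liver, and Hes6 (-0.26, adjusted p = 0.124) and Scly (0.18, adjusted p = 0.267) in marrow.

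C1qtnf4 was the member that changed after bleeding, and it did so in marrow. It encodes a secreted protein that carries a pair of C1q domains. In marrow at 0 h its 4 arrays read -3.14, -3.32, -3.47 and -3.48. At 24 h they read -1.85, -2.33, -2.42 and -1.99, and at 48 h -1.99, -2.03, -1.65 and -1.72. Every marrow array after bleeding lay above every marrow array before it, while the 24 h and 48 h arrays overlapped. The group means were -3.35 ± 0.16 (SD, n = 4) at 0 h, -2.15 ± 0.27 at 24 h and -1.84 ± 0.19 at 48 h.

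C1qtnf4 thus rose in marrow by 1.21 on the log2 scale at 24 h (SE 0.14), a 2.31-fold increase, with a 95% interval of 0.89 to 1.52 and a limma adjusted p of 0.00289. At 48 h it had risen by 1.51 (SE 0.14), 2.85-fold, with an interval of 1.19 to 1.83 and an adjusted p of 0.000578. The exact two-sided permutation test gave p = 0.0286 at either time, the smallest p that 4 against 4 arrays allow. The step from 24 h to 48 h was 0.30 (interval -0.01 to 0.62, adjusted p = 0.652) and was not called. Without marrow 24 h replicate 2 the 24 h change was 1.27 (adjusted p = 0.00576).

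The rise was seen on each of the 3 slides: within slides 1, 2 and 3 it was 1.38, 1.14 and 1.27 at 24 h, and 1.25, 1.64 and 1.76 at 48 h, from 1 or 2 arrays a side. Its size depended on the background correction. With the normexp correction the change was 0.74 at 24 h and 0.99 at 48 h, still called at both times.

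The count of members called in marrow is to be read against the share of all genes called. Of the 21397 genes tested there, 1.01% were called at 24 h, 0.551% higher and 0.463% lower. At 48 h 1.23% were called, 1.06% higher and 0.173% lower. Of the 8 members tested, C1qtnf4 was called higher at either time, 1 of 8, and 0 were called lower. Between 24 h and 48 h 0 of the 8 members were called, where 0.00467% of genes were. Groups that do not overlap were commoner, at 8.27% of all genes at 24 h and 12.7% at 48 h. The median change over the 8 members was -0.05 at 24 h and -0.14 at 48 h, beside -0.02 and 0.00 over all genes tested.

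**Figure D2:**
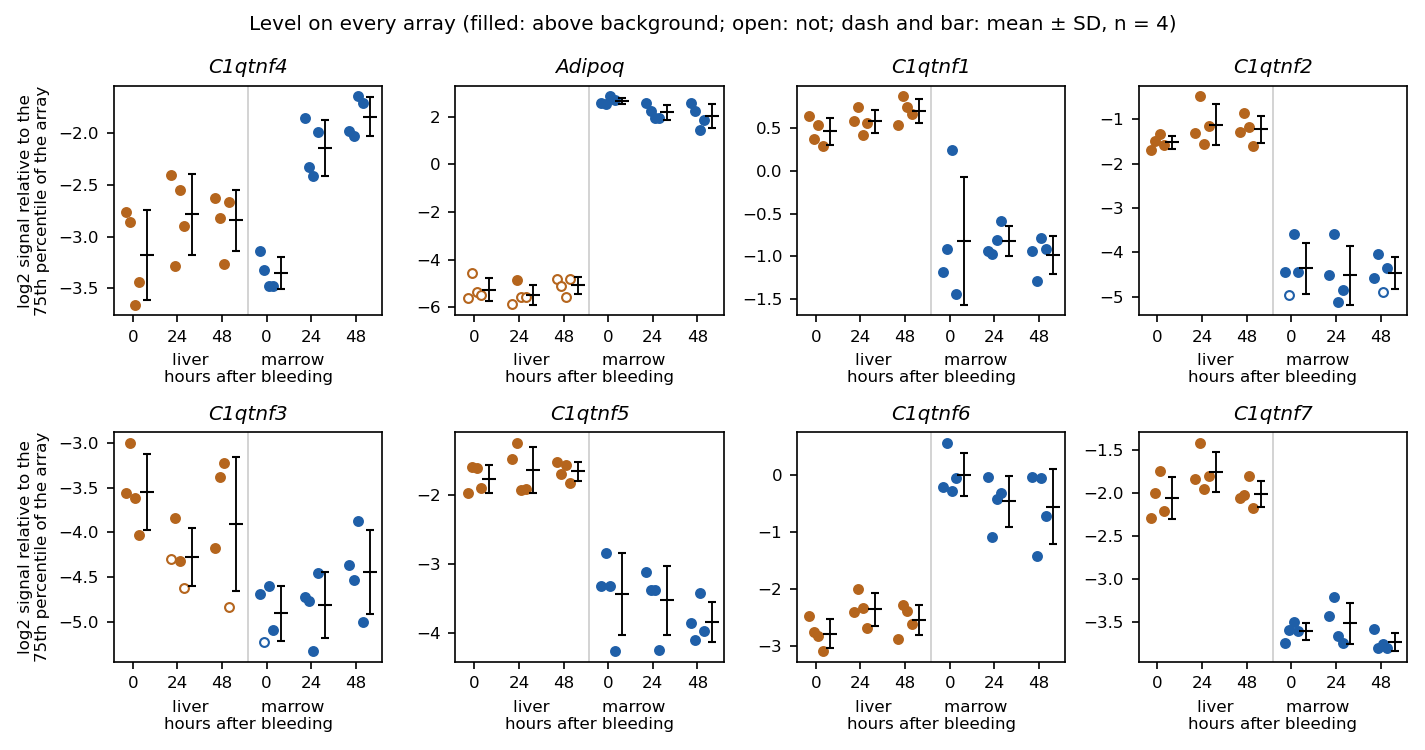
Level of the 8 members that passed the filter in a tissue, 1 probe each, on all 24 arrays (brown, liver; blue, marrow; vertical axis, log2 signal relative to the 75th percentile; horizontal axis, hours after bleeding). Filled points are above background and open ones are not; the dash and bar are the mean ± SD of 4 arrays. In the first panel all 8 marrow arrays after bleeding lie above the 4 before it, from -3.35 ± 0.16 to -2.15 ± 0.27 and -1.84 ± 0.19.

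In liver C1qtnf4 was detected on all 12 arrays at a level close to that of unbled marrow. The arrays read -2.77, -2.86, -3.66 and -3.43 at 0 h, -2.41, -3.28, -2.55 and -2.90 at 24 h, and -2.63, -2.83, -3.26 and -2.66 at 48 h. The 3 liver groups overlapped. The change was 0.40 at 24 h (interval -0.14 to 0.93, limma adjusted p = 0.569) and 0.34 at 48 h (interval -0.20 to 0.87, adjusted p = 0.891), and neither was called. Before bleeding, marrow and liver differed by -0.17 (adjusted p = 0.453). Under the normexp correction this difference was -0.50 with an adjusted p of 0.000635, lower in marrow.

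From the highest to the lowest group mean, the order for C1qtnf4 was marrow at 48 h, marrow at 24 h, liver at 24 h, liver at 48 h, liver at 0 h and marrow at 0 h. The ranges of each group and the next one overlapped throughout this order.

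Whether the marrow rise of C1qtnf4 exceeded that in liver was tested with an interaction term in the fit of all 24 arrays. The marrow change exceeded the liver change by 0.81 at 24 h (interval 0.19 to 1.43, limma adjusted p = 0.271) and by 1.17 at 48 h (interval 0.56 to 1.79, adjusted p = 0.0912). Neither difference passed the threshold, although the unadjusted p at 48 h was 0.000780. Of the 22771 genes tested, 0.364% passed at 24 h and 0.413% at 48 h, and 0 of the 8 members did. The 48 h difference passed under 3 of 37 alternatives: with normexp (adjusted p = 0.0156), with the slide as a block (0.0391) and in the values that the authors deposited (0.00653).

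Adipoq had its largest contrast between the tissues. In marrow it read 2.59, 2.53, 2.85 and 2.68 at 0 h, above the 75th percentile of all spots. In liver at 0 h it was not well above background on any of 4 arrays, and over the 12 liver arrays it was above background on 1, at 24 h. Marrow at 0 h was at least 143-fold higher than liver, taking for each liver array the higher of the probe's own signal and the dimmest signal counted as above background. The measured means were 2.66 ± 0.14 and -5.26 ± 0.47 (SD, n = 4). Adipoq passed the detection filter through marrow alone, so a difference was set by the filter and no p is given for it. In whole tissue, a change in the number of cells of a type and a change in the RNA of each cell cannot be told apart, here and for every member.

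After bleeding Adipoq in marrow read 2.59, 2.25, 1.95 and 1.95 at 24 h and 2.57, 2.23, 1.42 and 1.87 at 48 h. At each time 3 of 4 arrays lay below every array at 0 h, and replicate 1 lay among them. The change was -0.48 at 24 h (interval -0.97 to 0.01, limma adjusted p = 0.409; -0.50 without marrow 24 h replicate 2) and -0.64 at 48 h (interval -1.13 to -0.15, adjusted p = 0.191). Neither passed the threshold after adjustment. The exact two-sided permutation p was 0.0857 and 0.0571. Within slide 1 the change was 0.03 at 24 h and 0.01 at 48 h, within slide 2 -0.60 and -1.03, and within slide 3 -0.73 and -0.81.

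The other adipocyte markers in marrow were given as a list of 10, all of them tested. Of these 0 were called at 24 h or at 48 h, where 1.01% and 1.23% of all genes were. Their median change was -0.35 and -0.17. Lpl, the lipase that feeds fatty acids to fat cells, differed by -0.86 at 24 h (adjusted p = 0.0962), and Pparg, the master regulator of fat cell formation, by -0.38 (adjusted p = 0.0886). The summed signal of the list had a median of 37.1 at 0 h (31.9 to 41.4), 35.6 at 24 h (20.02 to 46.0) and 28.6 at 48 h (24.3 to 52.9). Its part in the Adipoq values was not tested.

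C1qtnf6, a secreted paralog, was the other member higher in marrow. At 0 h it read -0.21, 0.56, -0.27 and -0.05 in marrow and -2.48, -2.75, -2.82 and -3.09 in liver. The tissues did not overlap, and marrow was higher by 2.80 (SE 0.28, 6.94-fold, limma adjusted p = 8.7e-09). In marrow it read -0.03, -1.09, -0.42 and -0.31 at 24 h and -0.03, -1.42, -0.06 and -0.71 at 48 h. Replicate 2 was the lowest array at both times after bleeding and the highest before it. The changes of -0.47 (adjusted p = 0.591) and -0.56 (adjusted p = 0.425) were not called. Without marrow 24 h replicate 2 the 24 h change was -0.26 (adjusted p = 0.833). Without marrow 48 h replicate 2 the 48 h change was -0.28 (adjusted p = 0.767). Without marrow 0 h replicate 2 the changes were -0.29 and -0.38.

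The levels of C1qtnf6 in marrow moved with the summed signal of markers of stroma and bone. The list held 10 genes, among them Cxcl12, Postn and Ibsp, all above background on every marrow array. Their summed signal was 488 to 637 at 0 h, 248 to 548 at 24 h and 214 to 528 at 48 h. The 2 arrays with the lowest sums, 247.72 and 214.26, were the 2 on which C1qtnf6 was lowest, and the array with the highest sum, 637.15, was the one on which it was highest. The first of them, marrow 24 h replicate 2, is the array with the hepatocyte signal. After bleeding 0 of the 10 stroma markers were called at either time, where 1.01% and 1.23% of all genes were. Their change was below 0 for 10 of 10 at 24 h (median -0.44) and 8 of 10 at 48 h (median -0.31). The median over all genes was -0.02 and 0.00. The same 3 arrays were at the ends of a second list, 10 stellate cell and fibroblast markers, of which 9 were above background on every array of each marrow group. Its sums there were 426.23 and 274 at the low end and 851.31 at the high end. Both sums are linear, so they follow the brightest genes and do not describe all 10 evenly. In marrow at 0 h these were Bglap2 (8.51), Cxcl12 (6.26) and Bglap (6.15) in the first list. In the second list they were Col1a2 (8.84) and Col1a1 (7.91). Postn (-0.46) and Ibsp (2.28) add little. Of the 9 tested 0 were called, with a median change of -0.27 at 24 h and -0.50 at 48 h. The part of any of these cells in the C1qtnf6 values was not tested.

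**Figure D3:**
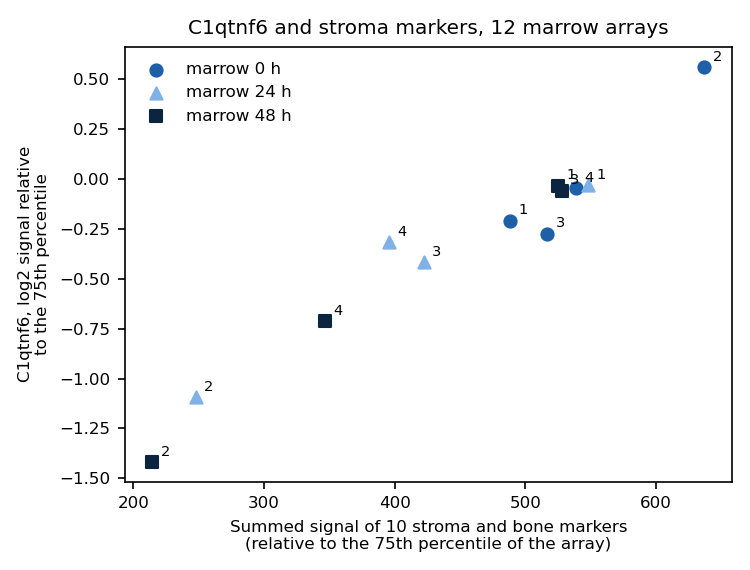
C1qtnf6 on the 12 marrow arrays (vertical axis, log2 signal relative to the 75th percentile) against the summed signal of 10 stroma and bone markers on the same array (horizontal axis, linear). Points are single arrays, shaped by time and numbered by replicate. Replicate 2 lies at the low end at 24 h (247.72) and at 48 h (214.26) and at the high end at 0 h (637.15).

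In liver C1qtnf6 read -2.41, -2.002, -2.33 and -2.69 at 24 h and -2.89, -2.28, -2.39 and -2.62 at 48 h. At 24 h 3 of 4 arrays lay above all those at 0 h, a change of 0.43 (interval 0.04 to 0.81, unadjusted p = 0.0334, limma adjusted p = 0.431). At 48 h it was 0.24 (adjusted p = 0.891). The 24 h difference did not pass the threshold, and 10.9% of all genes tested in liver had an unadjusted p under 0.05 at that time.

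C1qtnf1, C1qtnf2, C1qtnf3, C1qtnf5 and C1qtnf7 were all higher in liver before bleeding, with no overlap between the 4 arrays of each tissue. Including Adipoq, which the filter set apart, and C1qtnf6 in the other direction, 7 of 8 members tested differed between the tissues. That share is near the background, since 80.3% of all 22771 genes were called between marrow and liver, 39.6% higher in marrow and 40.6% lower, and 76.1% had groups that do not overlap.

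C1qtnf2, whose product raises fatty acid oxidation in muscle cells, showed the largest of these differences. It read -1.69, -1.48, -1.33 and -1.58 in liver at 0 h and -4.45, -4.96, -3.59 and -4.43 in marrow. Marrow differed by -2.84 (SE 0.31, limma adjusted p = 3.1e-08). It was above background on all 12 liver arrays and on 10 of 12 marrow arrays.

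C1qtnf5, which shares a transcript with the retinal gene Mfrp and is mutated in a late-onset retinal degeneration, read -1.97, -1.59, -1.60 and -1.90 in liver and -3.32, -2.84, -3.32 and -4.26 in marrow at 0 h. The difference was -1.67 (SE 0.26, adjusted p = 5.1e-06). C1qtnf7 read -2.28, -1.999, -1.74 and -2.21 in liver and -3.74, -3.60, -3.50 and -3.61 in marrow, a difference of -1.56 (SE 0.13, adjusted p = 9.9e-10). Both members were detected on every array of both tissues.

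C1qtnf1, found in vessel walls and an inhibitor of platelet aggregation, read 0.64, 0.37, 0.54 and 0.29 in liver at 0 h. In marrow it read -1.18, -0.92, 0.25 and -1.44, the third array being close to liver. The difference was -1.28 (SE 0.23, adjusted p = 3.9e-05). C1qtnf3, a product of cartilage and fat, was dim in both tissues: it read -3.56, -3.001, -3.62 and -4.03 in liver and -4.69, -5.23, -4.60 and -5.10 in marrow at 0 h. That difference was -1.35 (SE 0.31, adjusted p = 0.000539), and of its 3 probes the other 2 were not above background on all arrays of any group.

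None of these 5 was called after bleeding in either tissue. In marrow the changes lay between -0.16 (C1qtnf2) and 0.10 (C1qtnf7) at 24 h, and between -0.40 (C1qtnf5) and 0.46 (C1qtnf3) at 48 h, with adjusted p-values of 0.391 or more. For C1qtnf5 the 95% interval at 48 h ran from -1.07 to 0.27, so the 48 h change of C1qtnf4 (1.51) was outside it. For C1qtnf3 the interval ran from -0.08 to 1.01. C1qtnf3 was dim in marrow, with a mean of -4.91 at 0 h, and passed the filter through 24 h and 48 h alone. A rise was therefore favoured, so neither its p nor its interval tests one. Without marrow 24 h replicate 2 the 24 h change of C1qtnf2 was -0.47 (adjusted p = 0.613) and that of C1qtnf7 -0.0044 (adjusted p = 0.993). Those of C1qtnf1, C1qtnf3 and C1qtnf5 were then 0.05, 0.07 and -0.14.

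**Figure D4:**
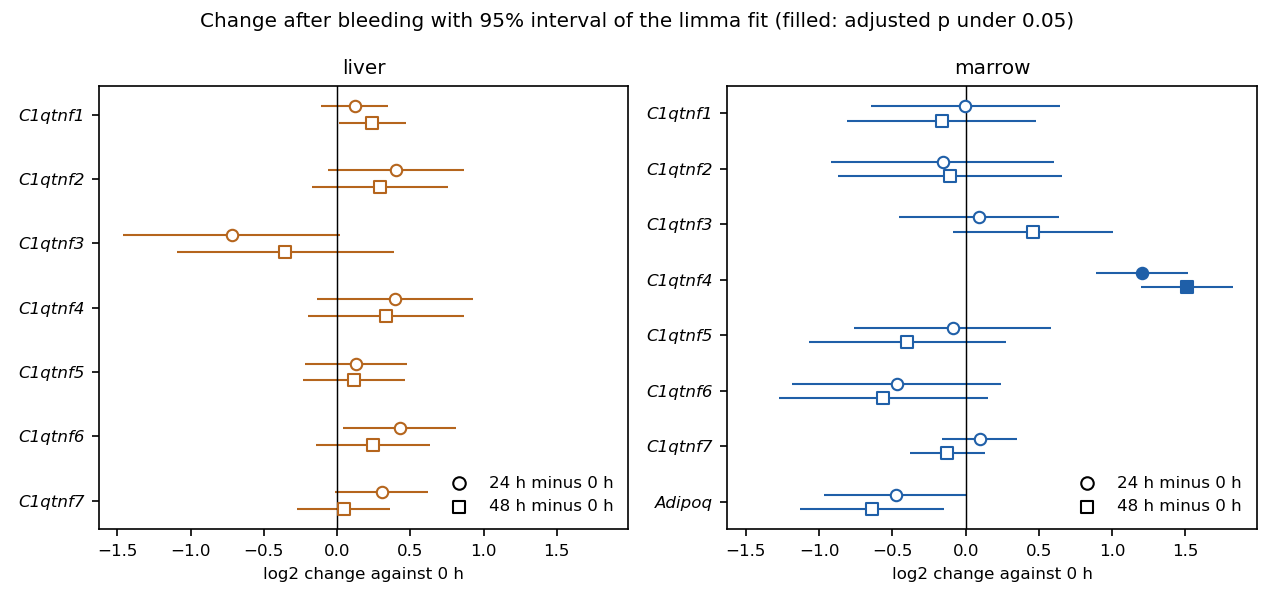
Change at 24 h (circles) and 48 h (squares) against 0 h for the members tested in liver (left, 7 genes) and marrow (right, 8 genes), on a log2 scale with the 95% interval of the limma fit. Filled symbols have an adjusted p under 0.05. Only the 2 symbols of C1qtnf4 in marrow, at 1.21 and 1.51, are filled.

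In liver 0 of the 7 members tested were called at 24 h, at 48 h or between the 2 times, and neither was any of the 19648 genes tested (0.0% in each comparison). At an unadjusted p under 0.05 there were 2144 genes at 24 h (10.9%), 1266 at 48 h (6.44%) and 1499 between the times (7.63%). Among the members, C1qtnf6 at 24 h and C1qtnf1 at 48 h were below that level. C1qtnf1 read 0.59, 0.75, 0.42 and 0.56 at 24 h and 0.53, 0.87, 0.74 and 0.66 at 48 h. Its change was 0.12 (adjusted p = 0.692) and then 0.24 (unadjusted p = 0.0403, adjusted p = 0.751), and at 48 h 3 of 4 arrays lay above those at 0 h.

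Of the 7 members tested in liver, 6 had a change above 0 at 24 h and 6 at 48 h, with C1qtnf3 the exception at -0.72 (interval -1.46 to 0.02, adjusted p = 0.466) and -0.35. C1qtnf3 was above background on 4 of 4 liver arrays at 0 h, 2 at 24 h and 3 at 48 h. It passed the filter through 0 h alone, so a fall was favoured and its p does not test one. The median change over the 7 members was 0.30 at 24 h and 0.24 at 48 h, beside -0.02 over all genes at either time. None of these single changes passed the threshold. The 10 stellate cell and fibroblast markers, all tested in liver, had a change above 0 for 10 of 10 at 24 h (median 0.33) and 8 of 10 at 48 h (median 0.13), and 0 were called. Their summed signal was 86.3 to 114.21 at 0 h, 96.1 to 139.06 at 24 h and 104.35 to 116.34 at 48 h. Their part in the members' values was not tested. No test was made of this pattern over the members.

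The pairs of probes for 1 member agreed in part. The dimmer C1qtnf7 probe, at chr5:44009968-44010027, read -4.67, -4.28, -4.30 and -4.65 in liver at 0 h and -2.97, -3.24, -4.13 and -4.04 at 24 h, without overlap, as 5.53% of all genes did. Its change was 0.88 (limma adjusted p = 0.344 with every probe tested by itself), against 0.30 for the brighter probe at chr5:44007765-44007824. At 0 h it was above background on 1 of 4 arrays. Only the 24 h group brought this dimmer probe through the detection filter in liver. A rise and a lack of overlap were therefore favoured, and its p does not test them. The second C1qtnf1 probe, at chr11:118311218-118311277, changed by 0.27 in marrow at 24 h (adjusted p = 0.398), against 0.00 for the brighter one at chr11:118312612-118312671.

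C1qtnf9, the paralog closest to adiponectin and best known from fat and heart, was above background on 0 of 24 arrays. Its levels ran from -7.28 to -5.05 over the liver arrays and from -7.93 to -6.84 over the marrow arrays.

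Among 21 other genes with a C1q domain, 0 of 13 tested in marrow and 0 of 9 tested in liver were called after bleeding. Of all genes, 1.01% were called in marrow at 24 h and 1.23% at 48 h, and 0.0% in liver. C1qtnf12, another relative of adiponectin, was well expressed in marrow, at 4.97 ± 0.16 at 0 h against -0.30 ± 0.23 in liver (difference 5.26, limma adjusted p = 4.3e-18). Its marrow change at 48 h was 0.35 (adjusted p = 0.133), followed by the RNA-binding protein Caprin2 with 0.46 (adjusted p = 0.200). The marrow change at 24 h was -0.45 (adjusted p = 0.0738) for C1qb and -0.42 (adjusted p = 0.116) for C1qc, subunits of complement C1q made by macrophages. In liver Emilin1, an elastic fibre protein, differed by 0.66 at 24 h (adjusted p = 0.325) and 0.52 at 48 h (adjusted p = 0.609), followed by C1qtnf12 at 24 h with 0.25 (adjusted p = 0.518) and Caprin2 at 48 h with 0.25 (adjusted p = 0.873).

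Before bleeding, 9 of those 13 genes were called between the tissues, 8 higher in marrow and 1 lower, where 80.3% of all genes were called and 39.6% were higher. Of the 13, 4 passed the filter through marrow alone, so the count describes them without testing them. Mmrn2, an endothelial matrix protein, was lower in marrow (-1.21, adjusted p = 9.3e-11). Besides C1qtnf12, Emilin2 (5.18), Col8a1 (3.69), Emilin1 (1.02) and Caprin2 (0.66) were higher in marrow and detected in both tissues. Mmrn1 of platelets was above background on 3 of 4 liver arrays at 0 h and on all 4 in marrow, with a measured difference of 6.15. In liver at 0 h Cbln1 and C1ql2 were not well above background on any array, and marrow was at least 9.21-fold and 1.40-fold higher. The complement genes C1qa, C1qb and C1qc differed by -0.20, 0.03 and 0.11 and were not called.

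The receptors of the family and the enzymes that assemble and process its members were a list of 18. Of these 16 were tested in liver and 17 in marrow, and 0 were called after bleeding in either. The share of all genes called was 0.0% in liver and 1.01% at 24 h and 1.23% at 48 h in marrow. Adipor2, the adiponectin receptor that dominates in liver, differed there by -0.36 at 24 h (limma adjusted p = 0.325) and -0.29 at 48 h (adjusted p = 0.621). Erp44, which retains adiponectin in the secretory pathway, differed by 0.19 at 24 h (adjusted p = 0.432) and the adaptor Appl1 by -0.29 at 48 h (adjusted p = 0.739). In marrow the smallest p-values were those of Adgrb3 (0.26, adjusted p = 0.214) and Adipor1 (-0.16, adjusted p = 0.487) at 24 h, and of Ero1b (-0.26, adjusted p = 0.252) and the convertase Pcsk6 (-0.98, adjusted p = 0.290) at 48 h.

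Before bleeding 16 of the 17 were called between the tissues, where 80.3% of all genes were, and Pcsk5 was the exception (0.07, adjusted p = 0.859). Plod2 passed the filter through marrow alone, so its difference was set by the filter. In marrow 4 were higher: Adipor1 (0.87), the collagen lysyl hydroxylases Plod2 (4.10, above background on 1 of 4 liver arrays) and Plod3 (0.66), and the disulfide-forming oxidase Ero1a (1.27). The other 12 were lower in marrow. Among the receptors and adaptors these were Adipor2 (-2.73), Cdh13 (-3.37), Adgrb3 (-0.63), Appl1 (-0.46) and Appl2 (-0.91). Among the assembly and processing genes they were Gstk1 (-5.25), Erp44 (-1.67), Ero1b (-2.31), Plod1 (-1.59) and the convertases Furin (-0.78), Pcsk6 (-2.78) and Pcsk7 (-0.27).

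The genes upstream of Erfe and its hepatic targets were a list of 17, with 15 tested in each tissue. In marrow 2 of 15 were called higher at 24 h and 2 at 48 h, where 0.551% and 1.06% of all genes were, and 0 lower. They were Cish, a STAT5 target that dampens cytokine receptors, and Pim1, a STAT5-induced kinase. Cish stood at -0.30 ± 0.21 (SD, n = 4) before bleeding and rose by 2.68 (SE 0.15, limma adjusted p = 9.5e-06) and 2.498 (adjusted p = 1.4e-05). Pim1 stood at 3.63 ± 0.17 and rose by 1.17 (SE 0.12, adjusted p = 0.000822) and 0.96 (adjusted p = 0.00325). The erythropoietin receptor Epor changed by -0.01 (adjusted p = 0.991) and 0.27 (adjusted p = 0.383).

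In liver 0 of 15 of that list were called, where 0.0% of all genes were. At an unadjusted limma p under 0.05, 2 of the 15 were lower and 0 higher at 24 h and again at 48 h. Of all genes, 10.9% and 6.44% had such a p, in either direction. Hamp, which encodes hepcidin, stood at 7.18 ± 0.38 before bleeding and at 5.42 ± 0.83 at 48 h, a change of -1.76 with an adjusted p of 0.421. Its neighbour Hamp2 changed by -1.63 (adjusted p = 0.634). At 24 h the smallest p-values were those of Klf1 (-0.41, adjusted p = 0.354) and Atoh8 (-0.47, adjusted p = 0.408).

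Over the 12 marrow arrays, the tested genes whose level ran most like that of C1qtnf4 were Apol10a (Pearson r = 0.96), Psmd2 (r = 0.96) and Ppp2r5b (r = 0.95), given as a description of 12 arrays that share their times and slides. The fitted changes of Apol10a were 1.94 at 24 h and 2.31 at 48 h, those of Psmd2, a proteasome subunit, 0.25 and 0.29, and those of Ppp2r5b, a phosphatase subunit, 0.60 and 0.69. For C1qtnf6 they were Creb3l1, a transcription factor of bone-forming cells, Cemip and Slc36a2, each with r = 0.99. For Adipoq they were Sgcd (r = 0.90), Vpreb1 (r = 0.87) and Micu3 (r = 0.87).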

How the data were processed

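The deposited scanner files hold the processed intensity of each spot, background subtracted and detrended within the array by Agilent Feature Extraction 10.10.1.1, per the file headers. The authors also deposited a table of log2 values. All arrays of 1 tissue have the same quantiles there, so it served only as an alternative for changes over time and their difference between tissues. The submitters' processing notes also name limma. Groups came from the sample labels.

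Here each array's log2 intensity was reduced by the 75th percentile over its 59305 non-control spots, outlier spots were left out and spots of a probe averaged. Each gene's brightest probe among those passing the detection filter stood for it. limma 3.58.1 in R 4.3.3 (lmFit, eBayes, two-sided, Benjamini-Hochberg over all genes tested, threshold 0.05) was fitted to 12 arrays per tissue, and to 24 for differences between tissues. The script was tested on simulated data. With 4 arrays a group, their number limits the precision. The saturated spots numbered 0. The current gene names come from a RefSeq table of a later assembly.

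All 10 members are named; of each list, genes past the threshold are named, or else the 2 with the smallest p, and genes most like a member by correlation. Genes beyond this rule (Epor, Lpl, Pparg and the complement genes between tissues) were named after their values were seen. Levels between tissues are not given for the regulators of Erfe and its neighbours. The members and lists were chosen with earlier results of these data known. Alternatives covered scaling, background, filter, probes, slide, replicate number, variance model and leaving out each array.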

Additional observations from a re-analysis of the deposited data

Results flagged for a closer look

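In 90 groups of 4 arrays, 1 for each member probe and group, 4 held an array that stood apart from the other 3 by Dixon's test at the 95% level. A rate of about 1 in 20 would hold for independent groups. These groups share the same 24 arrays, and some flags fall on the same array, so the count was not weighed against that rate. In marrow at 24 h, replicate 2 read -2.61 for the Erfe probe at chr1:93270468, and the same array read -3.06 for the dimmer C1qtnf7 probe. That is the array whose hepatocyte marker sum was 1359. Over the 12 liver arrays the same probes read at most -4.67 (Erfe) and -2.97 (C1qtnf7). The part of liver transcripts in either marrow value was not tested. In marrow at 48 h, replicate 3 read -5.23 for the Erfe probe at chr1:93267977, which was not well above background there. In liver at 48 h, replicate 2 read -2.92 for the C1qtnf3 probe at chr15:10908408, the only array of 24 on which that probe was above background.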

How the results depend on the processing

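The call of C1qtnf4 in marrow kept its direction and its side of the threshold in all 25 alternatives at 24 h (change 0.74 to 1.31, adjusted p 0.000751 to 0.0149) and at 48 h (0.99 to 1.58, adjusted p 0.000165 to 0.00655), and the other members tested after bleeding were called in none of theirs. Leaving out any 1 array gave 1 member called in marrow at 24 h and at 48 h and 0 in liver. The 48 h difference between tissues in the change of C1qtnf4 was called, 1 member, with normexp, the authors' values and the slide block only. Between the tissues before bleeding 4 members were called, not 7, when only probes above background on all arrays were kept, which leaves out Adipoq, C1qtnf2 and C1qtnf3 by construction. Detected members were 7 or 8 in liver and 8 or 9 in marrow. The counts over all genes moved more. In marrow at 24 h they were 69 with no filter, 126 with the replicate block and 385 with array weights, not 217, and 72 to 213 without 1 array, lowest without marrow 0 h replicate 2. At 48 h they were 126 with the median, 100 with no filter, 116 with the slide block, 100 with the replicate block and 645 with array weights, not 264, and 98 to 379 without 1 array, lowest without marrow 48 h replicate 2. Between 24 h and 48 h in marrow they were 2 with the replicate block, 2 with array weights and 0 with only the arrays compared. In liver, leaving out 1 array gave 0 to 2 genes at 24 h, 0 to 9 at 48 h, most without liver 48 h replicate 1, and 0 to 1 between the times. For the difference between tissues at 24 h the counts were 27 with the median, 139 with normexp, 159 with the authors' values, 22 with no filter, 10 with the replicate block and 16 with only the arrays compared, not 83, and 24 to 178 without 1 array. At 48 h they were 18 with the median, 157 with normexp, 24 with no filter, 146 with probes above background on all arrays, 11 with the replicate block, 155 with trend and robust, 174 with array weights and 52 with only the arrays compared, not 94, and 29 to 110 without 1 array. The cause of these moves was not tested. The replicate numbers were not taken to pair the samples: correlations of the deviations of same-numbered arrays ran from -0.25 to 0.17 between times. Between tissues they ran from 0.03 to 0.21, all above 0. Liver and marrow arrays of the same time and number were also on the same slide. A shared mouse and a shared slide cannot be told apart there, so whether a number marks 1 mouse is not known. With the replicate block C1qtnf4 in marrow kept its calls (adjusted p = 0.0149 and 0.00655). The authors' values, scaled per tissue, were not used for levels between tissues, only for changes and their difference. Erfe, C1qtnf9 and Adipoq in liver have only bounds, set by signal over background.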

Other observations

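Some members ran closely with a few other genes over the 12 arrays of a tissue. In liver, the gene most like C1qtnf6 was Nabp1 (Pearson r = 0.96), the gene most like C1qtnf5 was Tpm2, a tropomyosin (r = 0.94), and the gene most like C1qtnf2 was Fblim1 (r = 0.93). C1qtnf1 ran with Ctsa (r = 0.91), C1qtnf7 with Cnot10 (r = 0.90) and C1qtnf4 with Sstr4 (r = 0.88). In marrow C1qtnf1 ran with Pramel26 (r = 0.93), C1qtnf7 with Sod3, the extracellular superoxide dismutase (r = 0.93), and C1qtnf5 with Erap1 (r = 0.87). Each is the highest of 19488 correlations in liver or 21032 in marrow over arrays that share times and slides, and is given as a description.

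Few markers of other cells were called in marrow, where 1.01% of all genes were called at 24 h and 1.23% at 48 h. The median change over all genes was -0.02 and 0.00. Of the macrophage markers 0 of 9 tested were called, with a median change of -0.36 at 24 h and -0.34 at 48 h. Their change was below 0 for 8 of 9 at 24 h and 9 of 9 at 48 h. Of the erythroblast markers 1 of 10 was called, the Rh-associated glycoprotein Rhag at 48 h (0.74, limma adjusted p = 0.0357). Their median change was 0.06 at 24 h and 0.44 at 48 h, with 6 of 10 and 10 of 10 above 0. Of the skeletal muscle markers 0 of 8 tested were called, with a median of 0.76 and 0.34. All 8 were above background on every array at 24 h, but only 4 at 0 h and 4 at 48 h. The filter thus favoured a rise at 24 h, and that median does not test one. Of the stellate cell and fibroblast markers 0 of 9 were called, with a median of -0.27 and -0.50. The summed signal of the erythroblast markers was 1091 to 1445 before bleeding and 1274 to 1533 at 48 h. The part of these cells in the values of C1qtnf4 was not tested.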
